A study of Homo sapiens with 16 samples.

Results

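The zinc finger genes of chromosome 19 were taken as the protein-coding genes of that chromosome whose symbol starts with ZNF, by the RefSeq annotation of GRCh38, and each was given its annotated span plus 1 kb on either side. The rule found 250 genes among the 1451 protein-coding genes of chromosome 19, and it used no measured value. They were examined in T47D, a luminal breast cancer cell line that carries the estrogen receptor, in which chromatin immunoprecipitation followed by sequencing (ChIP-Seq) profiled RELA (p65), RELB and NFKB2, subunits of the transcription factor NF-κB. Knockdown cells had been transduced with lentiviruses carrying shRNAs against DAB2IP, the gene of a GTPase-activating protein that shuts down Ras signaling, control cells with lentivirus carrying an empty vector, and both had been selected with puromycin at 2 µg/ml for 72 hours. Each antibody and condition had 2 libraries, which gave 12 peak lists. The 4 input libraries had no list of their own here. The 3 libraries that share a condition and a replicate number are called a preparation. The labels do not say whether replicates came from separate cultures or from separate transductions, so p-values measure only the spread between these libraries, which may be technical. Expression of DAB2IP is not measured by ChIP-Seq, so the knockdown could not be checked in these lists.

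Most ZNF proteins of this chromosome belong to the Krüppel-associated box (KRAB) zinc finger family, in which an array of C2H2 zinc fingers reads DNA and the KRAB domain recruits the corepressor TRIM28 and, through it, the histone methyltransferase SETDB1 and HP1 proteins. The family grew by tandem duplication, so its genes stand in clusters of related copies, and many of its proteins bind transposable elements. The bodies and 3′ ends of these genes are themselves known to carry the repressive mark H3K9me3. NF-κB subunits, by contrast, bind a short DNA element, the κB site, in promoters and enhancers of immune and survival genes.

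The lists were long and their peaks weak. They held between 75060 and 708547 peaks on chromosomes 1 to 22 and X, and the knockdown RELA 1 and knockdown RELB 1 lists were the shortest, with 105520 and 75060 peaks. The deposited lists do not give the number of reads, so sequencing depth is unknown. A list was made at an unadjusted p-value threshold, and 99.77% or more of the peaks at ZNF genes in every list had a −log10 q of 0. Values of the 2 short lists are given with the others below.

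At the ZNF genes the number of peaks followed gene length. Summed over the lists, 17268 peaks lay at the 250 genes, and Spearman's rho across genes between length and summed peaks was 0.91, as a description over genes that are not independent replicates. The median length of a ZNF gene was 23.3 kb, against 12.7 kb for the other 1201 genes of the chromosome, so each ZNF gene was compared with the 10 other chromosome 19 genes nearest to it in length, and the pooled peaks per base pair of those 10 gave its expected number. ZNF536, a neural zinc finger gene without a KRAB box and the longest member at 488 kb, held the most peaks in each of the 12 lists.

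**Figure D1:**
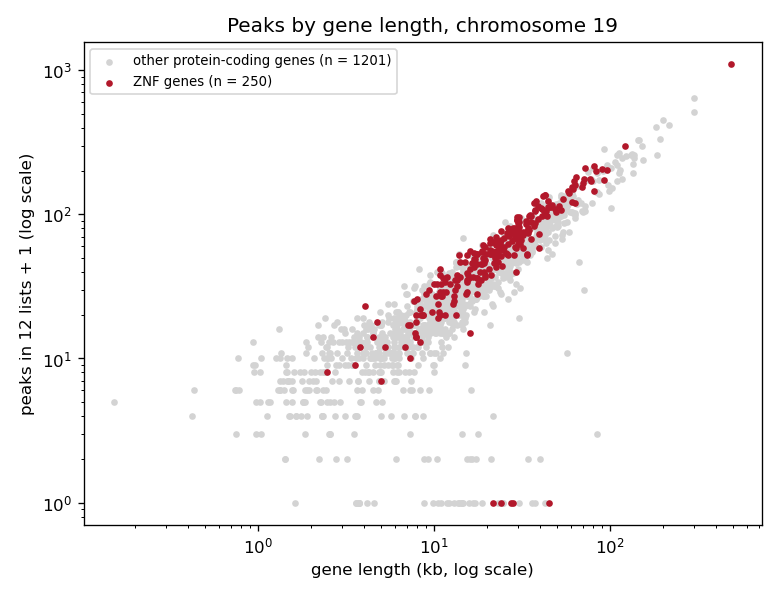
Peaks summed over the 12 lists, plus 1 (vertical, log scale), against gene length in kb (horizontal, log scale) for each chromosome 19 gene; red points are the 250 ZNF genes and gray points the 1201 others. The red points lie along the upper side of the gray cloud, and the 5 red points at the bottom are ZNF genes with 0 peaks.

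ZNF genes held more peaks than genes of like length in every list. In RELA libraries the counts were 236 peaks against 198 expected in knockdown 1, 1569 against 1294 in knockdown 2, 1412 against 988 in control 1 and 1345 against 1278 in control 2. The RELB libraries gave 189 against 175 in knockdown 1, 1362 against 849 in knockdown 2, 1585 against 1256 in control 1 and 1412 against 971 in control 2. For NFKB2 they were 1522 against 1338 and 2143 against 1580 in knockdown, and 2410 against 2023 and 2083 against 1513 in control. The ratio therefore ran from 1.05-fold in control RELA 2 to 1.604-fold in knockdown RELB 2, and it was above 1 in 12 of 12 lists. On the log2 scale the mean over the 4 preparations was 0.34 ± 0.12 (SD, n = 4), which is 1.27-fold, with an exact two-sided sign-flip p of 0.13, the smallest that 4 preparations can give. Without the 2 short lists the mean was 0.34, so the excess did not rest on them.

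The excess was smaller against the other genes inside the ZNF clusters, but not against genes of like length within 1 Mb of them. The clusters described below hold 239 of the ZNF genes and 148 other protein-coding genes, and inside them the ZNF genes had 0.91 to 1.38 times the peaks per Mb of the other genes. That ratio was above 1 in 10 of 12 lists, and the exceptions were control RELA 2 at 0.91 and knockdown RELB 1 at 0.95. Its mean on the log2 scale was 0.15 (exact two-sided sign-flip p = 0.13, n = 4 preparations), against 0.34 with genes of like length from anywhere on the chromosome. This comparison inside the clusters was chosen after seeing the data. It pooled genes of any length, among them other zinc finger genes such as ZFP30. Against genes of like length drawn from the 617 others within 1 Mb of the clusters, the mean log2 ratio was 0.35. That ratio was above 0 in 12 of 12 lists (exact two-sided sign-flip p = 0.13, n = 4 preparations). Set against all 19970 protein-coding genes, ZNF genes had more peaks per Mb in 7 lists and fewer in 5, with ratios from 0.84 to 1.29. The other genes of chromosome 19 were below the genome in 11 of 12 lists, with ratios from 0.61 to 1.07. Base composition and mappability along the chromosome could not be measured with the files at hand, and their part in these ratios was not tested.

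**Figure D2:**
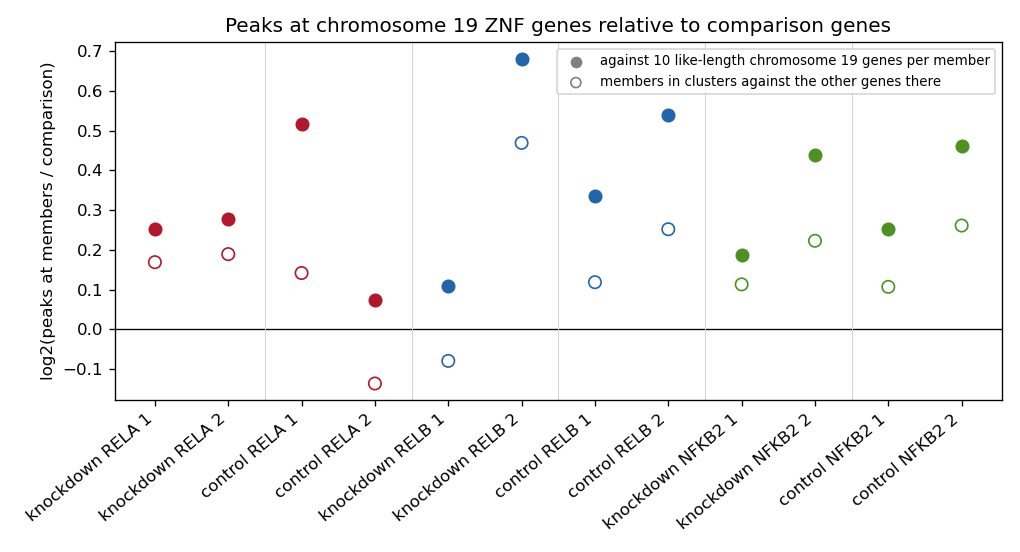
Each of the 12 lists (horizontal) with the log2 ratio of peaks at ZNF genes to the number expected (vertical); filled points use 10 chromosome 19 genes of like length for each ZNF gene, open points use the other genes inside the ZNF clusters, and colors mark the antibody. All 12 filled points lie above 0, from 0.07 to 0.68, and each open point lies below its filled point.

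The excess was spread over most of the genes. Of the 250 ZNF genes, 215 had more summed peaks than expected, or 86%, while 51.1% of the other chromosome 19 genes had more than their own genes of like length. The median ratio was 1.30 for ZNF genes and 1.01 for the others. Ratios reached 2.44, and 4 genes were at 2 or above. The 10 genes with the most peaks held 17.1% of all peaks, and leaving out ZNF536 moved the mean log2 ratio from 0.34 to 0.36.

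The ZNF genes of at least 10 kb with the highest ratios lay in several clusters. ZNF570 (chr19:37467772-37488652) had 66 peaks against 29.4 expected, with 1 and 12 in knockdown RELA, 4 and 8 in control RELA, 0 and 8 in knockdown RELB, 4 and 5 in control RELB, 6 and 5 in knockdown NFKB2, and 4 and 9 in control NFKB2. Its conditions overlapped for each antibody. ZNF493 (chr19:21397133-21427577) had 95 peaks against 47.8, and the knockdown 2 preparation was high for RELA and RELB: it had 2 and 19 in knockdown RELA, 9 and 4 in control RELA, 2 and 16 in knockdown RELB, 5 and 3 in control RELB, 8 and 10 in knockdown NFKB2, and 9 and 8 in control NFKB2. The conditions overlapped here too. ZNF556, ZNF284, ZNF101, ZNF571, ZNF614 and ZNF525 were the other 6 of the highest 8, at ratios from 1.90 to 2.04. The 5 longest ZNF genes were closer to expectation: ZNF536 was at 1.19, ZNF420 at 1.26, ZNF254 at 1.08, ZNF69 at 0.90 and ZNF91 at 1.18.

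A peak was found at nearly every ZNF gene in the long lists. The share of ZNF genes with at least 1 peak was 52.8% in knockdown RELA 1 (exact 95% binomial interval 46.4 to 59.1%) and 44.8% in knockdown RELB 1 (38.5 to 51.2%), and it was 90% to 96.4% in the other 10 lists. These intervals cover counting error only. The genes of like length were at 48.0% and 43.3% in the 2 short lists and at 82.5% to 93.3% in the others, and the ZNF genes had the higher share in 11 of 12 lists, the exception being knockdown RELA 2 at 93.2% against 93.3%. A peak in all 12 lists was found for 66 ZNF genes, or 26.4%, beside 36% of all protein-coding genes and 22.8% of the genes of like length. Over the 10 long lists alone, 178 ZNF genes, or 71.2%, had a peak in each. The share of other genes under this rule was not computed, so this value does not set ZNF genes apart.

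**Figure D3:**
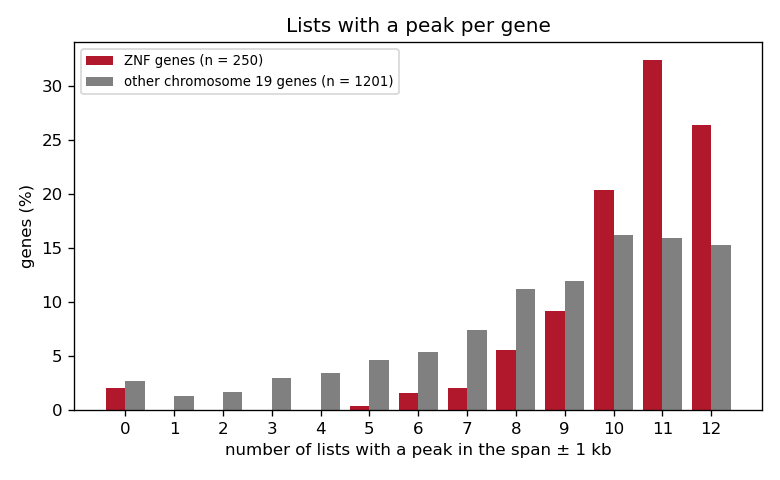
Percent of genes (vertical) by the number of lists in which the gene had a peak (horizontal), for the 250 ZNF genes in red and the 1201 other chromosome 19 genes in gray. Among ZNF genes 81 had a peak in 11 lists and 66 in 12, and 5 had none.

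The shortest ZNF genes with a peak in all 12 lists were ZNF625 (11.8 kb), ZNF155 (14.1 kb) and ZNF223 (16.4 kb), followed by ZNF554, ZNF235, ZNF234, ZNF677 and ZNF471. ZNF625 had 1 and 2 peaks in knockdown RELA, 1 and 3 in control RELA, 1 and 2 in knockdown RELB, 2 and 7 in control RELB, 2 and 6 in knockdown NFKB2, and 5 and 4 in control NFKB2. Most of these counts are within a few peaks of each other, and the conditions overlapped for each antibody. The 2 short lists contributed a single peak each at ZNF625.

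There were 5 ZNF genes with no listed peak, and each lay inside a long stretch of the chromosome where no list had a peak for any gene. ZNF546, ZNF780B and ZNF780A lay in a stretch of 191 kb (chr19:39904244-40095286), where the chromosome-wide rate would give 351 peaks over the 12 lists and which also held PSMC4, which encodes a proteasome subunit, and part of FCGBP. ZNF85 lay in a stretch of 176 kb (chr19:20865506-21041957) and ZNF100 in another of 122 kb (chr19:21686825-21808837). ZNF66, ZNF430, ZNF43, ZNF676 and ZNF729 were partly inside such stretches, by 8.26% to 63.3% of their span, and had peaks in the remainder. Stretches of at least 50 kb that touched other chromosome 19 genes covered the KIR receptor genes from KIR3DL3 to KIR3DL2, among others. They also covered FBL, which encodes a nucleolar methyltransferase. The spans listed for other KIR genes held peaks, such as that of KIR2DL2 with 126 over 12 lists. In the gene order used, which runs by start position, these spans stood at the start of the chromosome, away from KIR3DL3. Peaks counted there are therefore not taken as peaks of KIR genes. The listed positions were not checked, and these entries remain among the other chromosome 19 genes used for comparison. Genes with no peak made up 2% of ZNF genes, 2.66% of the other chromosome 19 genes and 2.93% of all protein-coding genes. The cause of these stretches was not tested, and the 5 genes are treated as not assessed. Leaving out every gene without a peak, a choice made after seeing the data, left the mean log2 ratio at 0.35.

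The 9 clusters of at least 5 ZNF genes, with gaps of at most 1 Mb between neighbors, held 239 genes, and 11 genes were scattered. Pooled over the lists, the ratio to expectation was highest in cluster 1 near the short-arm end (ZNF554 to ZNF77, 5 genes, chr19:2819868-2944971) at 1.55 and in cluster 6 (ZNF565 to ZNF573, 26 genes) at 1.43. Cluster 7 (ZNF575 to ZNF296, 24 genes) was at 1.41, cluster 4 (ZNF101 to ZNF254, 37 genes beside the centromere on the short arm) at 1.31, cluster 3 (ZNF653 to ZNF791, 25 genes) at 1.31, cluster 8 (ZNF175 to ZNF331, 41 genes) at 1.30, cluster 2 (ZNF557 to ZNF846, 16 genes) at 1.27 and cluster 5 (ZNF302 to ZNF792, 5 genes) at 1.251. Cluster 9 at the long-arm end (ZNF628 to ZNF446, 60 genes) was the lowest at 1.13, and the scattered genes were at 1.08. The 5 genes treated as not assessed are counted in these ratios with 0 peaks and lower them. ZNF546, ZNF780A and ZNF780B are among the scattered genes, and ZNF85 and ZNF100 are in cluster 4. The ratios by cluster were not computed without them. ZNF536 alone held 1097 of the 1538 peaks at scattered genes.

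The order of the clusters was not steady from list to list. Cluster 1, with 226 peaks in all, ranged from 0.08 to 2.52 in log2 ratio, and its highest value came from the short knockdown RELA 1 list. Cluster 9 ranged from −0.20 to 0.36 and cluster 6 from −0.03 to 1.06. Cluster 1 stood 1.37 times above cluster 9, with an SD of 0.32 over the 4 preparations. In cluster 6 all 26 genes were above their expected number and 15 had a peak in all 12 lists, whereas in cluster 9 it was 44 of 60 and 4 of 60. The genes of cluster 9 were also shorter, with a median of 13.03 kb against 31.9 kb in cluster 6.

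**Figure D4:**
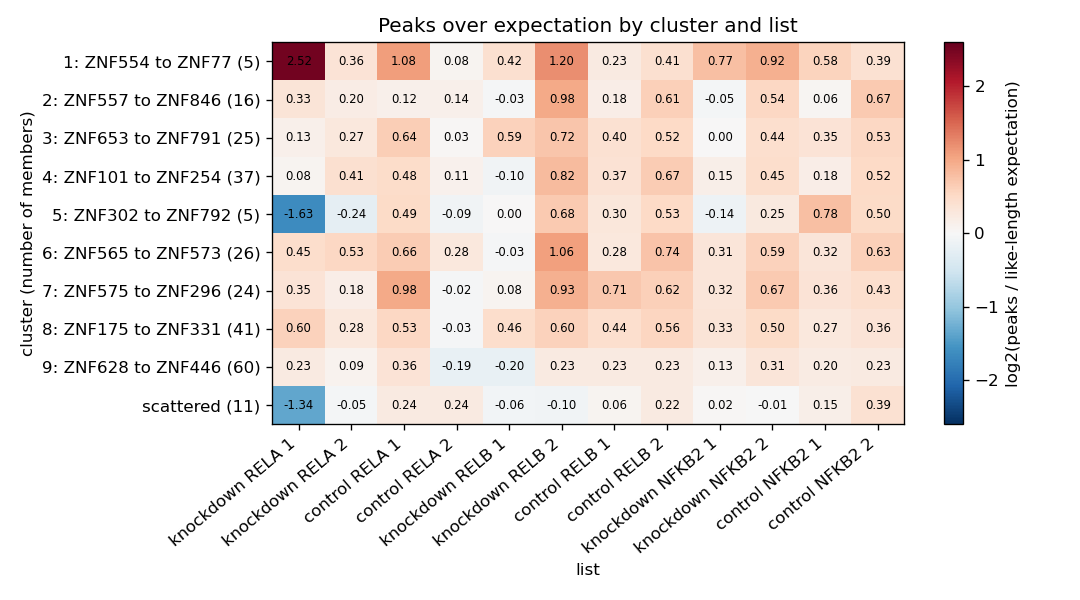
Log2 ratio of peaks to the like-length expectation for each ZNF cluster (rows, in order along the chromosome, with the number of genes) and each list (columns); red is above and blue below expectation. Cluster 3 and cluster 1 are above 0 in all 12 lists, and the lowest values, −1.63 in cluster 5 and −1.34 at the scattered genes, are in the short knockdown RELA 1 list.

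The knockdown was compared with control for each antibody on the log2 ratio of ZNF genes to genes of like length, which scales each list by its own comparison genes. For RELA the ratio was 0.25 and 0.28 in knockdown and 0.52 and 0.07 in control, a difference of −0.030 (exact two-sided permutation p = 1, n = 2 per group). For RELB it was 0.11 and 0.68 in knockdown and 0.34 and 0.54 in control, a difference of −0.043 (exact permutation p = 1). For NFKB2 it was 0.19 and 0.44 in knockdown and 0.25 and 0.46 in control, a difference of −0.044 (exact permutation p = 0.67). The groups overlapped for each antibody, and the Benjamini-Hochberg adjusted p over the 3 antibodies was 1. An exact permutation of 2 libraries against 2 cannot go below p = 0.33, so these tests cannot show that the conditions act alike. Relative to all peaks of the list instead, the log2 difference between knockdown and control was −0.23 for RELA and −0.15 for RELB, without overlap (exact permutation p = 0.33 each), and −0.15 for NFKB2 with overlap (exact permutation p = 0.67). In plain peak numbers the log2 differences were −1.18, −1.56 and −0.31, and the RELA and RELB values include the short lists. The sign of each like-length difference changed when single libraries were left out: the RELA difference was 0.19 without control 1, the RELB difference 0.24 without knockdown 1 and 0.059 without control 2, and the NFKB2 difference 0.083 without knockdown 1 and 0.061 without control 2. The smallest clusters went opposite ways, and they are given as examples chosen after their values were seen, with no test. In cluster 1 the log2 ratio with NFKB2 was 0.77 and 0.92 in knockdown and 0.58 and 0.39 in control, and with RELB it was 0.42 and 1.20 against 0.23 and 0.41, so knockdown was higher in both, while RELA overlapped at 2.52 and 0.36 against 1.08 and 0.081. In cluster 5 control was higher with NFKB2, at −0.14 and 0.25 in knockdown against 0.78 and 0.50, and with RELA, at −1.63 and −0.24 against 0.49 and −0.086, while RELB overlapped at 0.00073 and 0.68 against 0.30 and 0.53. The knockdown 1 values of RELA and RELB here rest on 1 to 8 peaks.

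No ZNF gene had a peak in both knockdown lists and neither control list with any antibody. Among all protein-coding genes 0.416% (RELA), 0.381% (RELB) and 1.46% (NFKB2) did. Among the genes of like length it was 0.16%, 0.64% and 0.72%, in that order. The reverse, a peak in both control lists only, was found for 6 ZNF genes with RELA, 11 with RELB and 1 with NFKB2, or 2.4%, 4.4% and 0.4% of them, beside 2.95%, 5.13% and 1.34% of all genes. The genes of like length gave 1.28%, 5.12% and 0.48%, so ZNF genes were above them with RELA and below them with RELB and NFKB2. The RELA and RELB counts include a short knockdown list. When knockdown replicate 1 was left out, control-only genes numbered 11 for RELA and 13 for RELB, and knockdown-only genes 0 and 3. Leaving out a list can only keep or raise such counts, and the share of all genes under this rule was not computed.

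Genes with RELA peaks only in control included ZNF222 (0 and 0 peaks in knockdown, 4 and 2 in control), ZNF837 (0 and 0 against 3 and 2) and ZNF135 (0 and 0 against 1 and 2). With RELB they included ZNF28 (0 and 0 against 6 and 5), ZNF587 (0 and 0 against 4 and 3) and ZNF418 (0 and 0 against 5 and 1). ZNF296, at 4.98 kb, was the NFKB2 gene, with 0 and 0 against 2 and 1, and it was also among the 6 RELA genes. All of these are counts of a few weak peaks in spans that had peaks in other lists.

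By number of peaks, both control lists exceeded both knockdown lists at 48 ZNF genes with RELA, 75 with RELB and 57 with NFKB2, or 19.2%, 30% and 22.8%, where the share of all genes was 13.5%, 25% and 14.6%. Both knockdown lists were higher at 0, 0 and 10 ZNF genes, where the share of all genes was 0.721%, 0.496% and 8.16%. These counts are not scaled for list length, and the knockdown lists of RELA and RELB include the short ones. The genes of like length gave 14.7%, 33.2% and 20.7% with control higher. ZNF235 was higher in control with every antibody, with 1 and 2 peaks in knockdown RELA against 4 and 6, 1 and 2 in knockdown RELB against 5 and 7, and 4 and 5 in knockdown NFKB2 against 9 and 9. It was so at 4 of the 250 genes, or 1.6%, beside 1.18% of all genes and 2% of the genes of like length, in counts that include the short lists. Among the 10 genes higher in knockdown with NFKB2 were ZNF146, with 12 and 12 peaks against 7 and 7, and ZNF677, with 10 and 8 against 6 and 2.

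The 3 antibodies did not differ at ZNF genes beyond the spread between preparations. RELA had a mean log2 ratio of 0.28 ± 0.18, RELB of 0.42 ± 0.25 and NFKB2 of 0.33 ± 0.14 (SD, n = 4 preparations). RELB and RELA, the highest and the lowest, differed by 0.14 with an SD of 0.35, and reordering the antibodies within the preparations in every possible way gave an exact permutation p of 0.58. The 3 antibodies recognise different subunits, so a gene bound by one complex need not be bound by another, and a smaller difference could not be detected with 4 preparations.

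ZNF genes with known roles were examined as a list, and all 13 had a peak in at least 9 lists, as did 88.4% of the ZNF genes, 81.5% of the genes of like length and 70.6% of all genes. The genes whose proteins bind transposable elements were above expectation, as were 86% of all ZNF genes. ZNF91, which represses SVA elements, had 204 peaks against 172, and ZNF93, which represses LINE-1 elements, 97 against 55.4. ZNF649 had 35 against 27.3 and ZNF765 71 against 61.4. Of these, only ZNF93, at a ratio of 1.75, was above the median ZNF gene at 1.30. ZNF91 had 2 and 22 peaks in knockdown RELA, 7 and 14 in control RELA, 2 and 11 in knockdown RELB, 22 and 20 in control RELB, 18 and 20 in knockdown NFKB2, and 30 and 36 in control NFKB2. Its control lists were higher than its knockdown lists for RELB and NFKB2 and overlapped for RELA. ZNF274, which binds the 3′ ends of zinc finger genes, had 64 peaks against 44.8, with 2 and 5 in knockdown RELA, 6 and 5 in control RELA, 2 and 1 in knockdown RELB, 7 and 1 in control RELB, 9 and 9 in knockdown NFKB2, and 11 and 6 in control NFKB2.

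Genes tied to NF-κB or innate signaling lay in the same range. ZNF675, whose protein restrains TRAF6 signaling, had 80 peaks against 54.7, ZNF382, a KRAB repressor reported to dampen NF-κB signaling, 71 against 54.0, and ZNF160, a KRAB repressor linked to silencing of TLR4, 82 against 64.5. ZNF675 had 0 and 8 peaks in knockdown RELA, 6 and 6 in control RELA, 0 and 11 in knockdown RELB, 2 and 8 in control RELB, 8 and 10 in knockdown NFKB2, and 11 and 10 in control NFKB2. Its zeros were in the 2 short lists. ZNF350, a partner of BRCA1, had 69 against 38.6, the highest ratio of the list at 1.79. ZNF420, ZNF224, ZNF331 and ZNF146 were at 1.26, 1.31, 1.22 and 1.66.

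The partner genes through which KRAB zinc finger proteins act were read in the same lists. TRIM28, the shared corepressor, is on chromosome 19 itself and had 12 peaks in all over 9 lists, with 1 and 1 in knockdown RELA, 0 and 1 in control RELA, 0 and 0 in knockdown RELB, 1 and 1 in control RELB, 2 and 2 in knockdown NFKB2, and 1 and 2 in control NFKB2. Its RELB lists were higher in control than in knockdown by 1 peak. SETDB1 had 62 peaks and ATF7IP, which stabilises SETDB1, 643 over 137 kb. Both control lists were above both knockdown lists at 1 of the 12 partner genes with RELA (SETDB2), at 4 with RELB (ATRX, CBX5, DNMT1 and TRIM28) and at 3 with NFKB2 (ATRX, CBX1 and CBX3). Among all genes 13.5%, 25% and 14.6% had both control lists higher, in that order. The RELA and RELB counts at partner genes include the short knockdown lists. The reverse, both knockdown lists higher, was seen at 1 gene, MORC3, with NFKB2 (10 and 9 peaks in knockdown against 8 and 6). Among all genes 8.16% did so with NFKB2.

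Peaks at ZNF genes were shallow. For 10 lists the number of fragments at a summit was worked out from the caller's enrichment and p-value, for every peak within 0.002 of the listed −log10 p, and the median was 2 or 3 fragments, the maximum 6 to 9, and 55.2% to 91.4% of the summits had 3 or fewer. In knockdown RELA 1 and knockdown RELB 1 this failed for every peak. Median fold enrichment over the caller's background was 2.14 to 2.77 at ZNF genes, and 2.14 to 2.75 at the other chromosome 19 genes. A single ZNF gene of 250, or 0.4%, had a peak with a q-value of at most 0.05, beside 9 of the 1201 other chromosome 19 genes and 0.651% of all genes. It lay in ZNF415 (chr19:53126454-53126675) in knockdown RELB 2, with 9 fragments at the summit against a background of 0.77, a fold enrichment of 5.64 and a −log10 q of 1.85. The same interval was overlapped by peaks in 4 other lists, control RELA 2, control RELB 2, knockdown NFKB2 2 and control NFKB2 1, so it was called in knockdown and in control. The next highest were in ZNF544 (−log10 q of 0.72), ZNF536 (0.69), ZNF676 (0.44) and ZNF227 (0.40), each in a different list.

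Most positions within ZNF genes were called in a single list. Peaks of the 12 lists merged into 9854 regions at ZNF genes, of which 5976, or 60.6%, came from 1 list, 3878, or 39.4%, from at least 2 lists, 640, or 6.49%, from at least 4, 90 from 6 or more lists and 3 from 9 lists, with none from more. The regions of 9 lists were chr19:22208102-22208729 and chr19:22209101-22209800 in ZNF676 and chr19:20796760-20797648 in ZNF66, and they came from 4 or 5 knockdown and 4 or 5 control lists. None of the regions was in all 4 RELA lists, 1 was in all 4 RELB lists and 20 were in all 4 NFKB2 lists. These counts cannot be compared between antibodies, because the RELA and RELB lists each include a short one. Peaks covered 0.58% of the spans in knockdown RELA 1 and 0.46% in knockdown RELB 1, against 4.15% to 7.01% in the NFKB2 lists. Regions at other genes were not counted. The ZNF66 and ZNF676 regions lay 0.81 to 7.39 kb from the peak-free stretches described above.

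On average, lists of the same preparation shared more of their covered bases than lists of the same antibody. Over the merged spans of the ZNF genes (7548 kb), peaks covered 0.46% to 7.01% of the sequence. The Jaccard index, the shared share of covered bases, averaged 3.44% for lists of the same preparation with different antibodies, 1.96% for replicates of the same antibody and condition, 2.07% for the same antibody across conditions and 1.89% for other pairs. The knockdown 1 preparation, which holds both short lists, was the lowest of the preparations, at 0.52% to 1.15%. Among the 10 long lists the averages were 4.33% (range 3.93% to 4.95%), 2.71% (2.02% to 3.36%), 2.80% (2.05% to 3.92%) and 2.55% (1.93% to 3.22%), in the same order. Lists of a preparation may share cells and an input, and the part of either in this overlap was not tested.

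Peaks at ZNF genes did not gather at the gene start. In the 219 ZNF genes with a strand in the RefSeq promoter table, summits per Mb in the 1 kb on either side of the start were on average 0.90 times those in the gene middle, with 10 of 12 lists below 1, and in 662 genes of like length the ratio was 0.94. Over the 10 long lists alone these ratios were 0.82 and 0.91. Around the gene end, where KRAB zinc finger genes carry their finger-coding exon, the ratio was 1.04 in ZNF genes and 0.93 in genes of like length. Among the lists it ranged from 0.83 in knockdown RELA 2 to 1.75 in the short knockdown RELB 1, and 5 of 12 lists were above 1, against 2 of 12 in genes of like length. The mean above 1 rests on knockdown RELB 1, where 17 summits lay at gene ends, and over the 10 long lists it was 0.98 in ZNF genes and 0.92 in genes of like length. The difference was not tested.

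**Figure D5:**
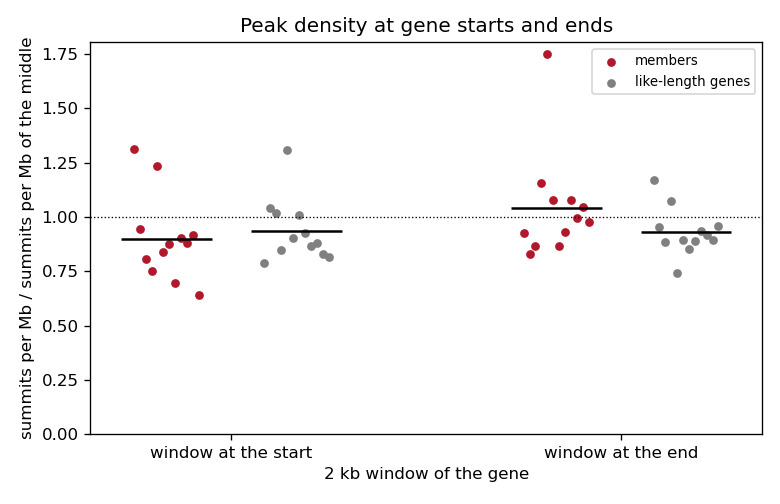
Summits per Mb in the 2 kb window at the gene start or end divided by summits per Mb of the gene middle (vertical); each point is a list, red for ZNF genes and gray for genes of like length, and bars are means. The means for ZNF genes are 0.90 at the start and 1.04 at the end, and the highest red point, 1.75, is the short knockdown RELB 1 list.

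Promoters of ZNF genes seldom held a κB motif. A promoter is here the 300 bases from 250 before to 50 after the start in RefSeq (GRCh38.p14), and 219 of the 250 ZNF genes had one. The κB consensus motif, searched on both strands, was in 6 of these promoters, or 2.74%. It was in 7.14% of 966 promoters of other chromosome 19 genes and 6.37% of all 15811. Median GC content was 60% in the ZNF promoters, 64% in the other chromosome 19 promoters and 62.7% in all. Its part in the difference was not tested. Promoter peaks were found for 2 to 32 of the 219 ZNF genes per list, or 0.91% to 14.6%, against 0.93% to 11.2% of the other chromosome 19 promoters. No ZNF promoter had a peak in more than 5 lists, and 85 had none. The number of lists per promoter was not counted for other genes, so these 2 values do not set ZNF promoters apart.

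Of the promoters with a peak in the most lists, 3 are shown first, to show what sequence these peaks fall on, and none of the 3 holds the κB motif. They are the promoter with a peak in 5 lists and, of the 5 with a peak in 4, those of ZNF160 and ZNF350, picked because these genes are in the list of known roles. The others at 4 lists were ZNF461, ZNF816 and ZNF816-ZNF321P, of which the last 2 share a promoter. ZNF414 (chr19:8514118-8514417, minus strand) had a peak in 5 lists, knockdown RELA 2, control RELA 1, knockdown RELB 2, control RELB 1 and knockdown NFKB2 2. ZNF160 (chr19:53103373-53103672, minus strand) had one in 4 lists, all of them control and most of them from the control 1 preparation. They were control RELA 1, control RELB 1, control NFKB2 1 and control NFKB2 2. ZNF350 (chr19:51986791-51987090, minus strand) had one in 4, of which 3 were control. Their GC content was 62.7%, 72.7% and 51.3%.
ZNF414: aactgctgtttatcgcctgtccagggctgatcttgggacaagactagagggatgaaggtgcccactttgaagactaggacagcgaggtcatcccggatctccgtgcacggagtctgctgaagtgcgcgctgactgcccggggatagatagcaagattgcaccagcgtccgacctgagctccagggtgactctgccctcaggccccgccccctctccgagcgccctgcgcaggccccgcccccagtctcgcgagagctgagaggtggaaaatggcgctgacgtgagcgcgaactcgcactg
ZNF160: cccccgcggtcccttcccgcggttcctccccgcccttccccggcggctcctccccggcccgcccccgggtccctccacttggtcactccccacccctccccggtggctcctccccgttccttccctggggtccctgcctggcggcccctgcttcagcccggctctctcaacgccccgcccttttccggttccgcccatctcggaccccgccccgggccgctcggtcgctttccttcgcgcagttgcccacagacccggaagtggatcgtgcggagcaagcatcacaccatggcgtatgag
ZNF350: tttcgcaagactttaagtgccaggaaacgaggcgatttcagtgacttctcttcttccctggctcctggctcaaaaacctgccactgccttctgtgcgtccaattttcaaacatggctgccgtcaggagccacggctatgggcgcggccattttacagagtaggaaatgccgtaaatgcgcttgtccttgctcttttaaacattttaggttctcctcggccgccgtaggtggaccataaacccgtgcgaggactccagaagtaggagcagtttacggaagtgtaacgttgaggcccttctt

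The 6 promoters with the κB motif were those of ZNF101, ZNF792, ZNF383, ZNF415, ZNF418 and ZNF8, and the motif itself was under a peak in 0 to 2 lists. In ZNF418 (chr19:57935353-57935652, minus strand) it was covered in control RELA 2 and control NFKB2 2, and in ZNF415 (chr19:53132861-53133160, minus strand) in control NFKB2 1. ZNF415 is also the gene of the single peak that passed the q-value limit, which lay downstream of this promoter inside the gene. Both are shown 5′ to 3′ on the gene's strand, with the κB motif in capitals.
ZNF418: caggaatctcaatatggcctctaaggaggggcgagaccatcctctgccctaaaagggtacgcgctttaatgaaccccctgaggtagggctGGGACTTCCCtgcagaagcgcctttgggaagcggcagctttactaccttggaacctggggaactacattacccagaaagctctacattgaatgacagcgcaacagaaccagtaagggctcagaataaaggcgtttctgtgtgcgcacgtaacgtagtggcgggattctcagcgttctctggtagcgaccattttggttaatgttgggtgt
ZNF415: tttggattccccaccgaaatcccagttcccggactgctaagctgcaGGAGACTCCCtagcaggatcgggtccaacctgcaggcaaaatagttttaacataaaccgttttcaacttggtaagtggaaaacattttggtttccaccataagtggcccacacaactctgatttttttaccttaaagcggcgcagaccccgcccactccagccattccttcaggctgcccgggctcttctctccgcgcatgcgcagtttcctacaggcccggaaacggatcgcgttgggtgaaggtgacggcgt
A match to the motif is a description of these letters and does not show a bound site.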

How the data were processed

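Peak lists of 12 ChIP-Seq libraries of T47D cells (3 antibodies, knockdown or empty vector, 2 libraries each) were used. The submitters' processing notes name CASAVA 1.8, BWA 0.7.12, MACS2 2.1.0, DiffBind and build hg38, and the study's methods give paired-end reads and peak calling per library. The authors deposited 1 peak list per library. Positions in them count from 0. Their deposited columns are a score (−log10 p times 10, cut to an integer) and a ratio, which is each summit's fold enrichment against local background, and the authors' lists also give −log10 p-values and −log10 q-values, all of which were used only to rank, filter or describe peaks.

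A peak was counted at a gene when it overlapped the RefSeq span (GRCh38.p14) plus 1 kb by at least 1 base. Identical intervals in a list were counted once, and 19 ZNF genes overlapped the one before, so some peaks count for both. Expected numbers came from the 10 chromosome 19 genes nearest in length. Comparisons used exact sign-flip and permutation tests, adjusted by Benjamini-Hochberg over 3 antibodies. Counting and tests were checked on simulated data. Python 3.11.15, numpy 2.4.6, pandas 2.3.3 and scipy 1.17.1 were used.

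Genes named were the 8 highest and 5 lowest ratios of at least 10 kb, the 5 longest, the 8 shortest with a peak in all 12 lists, the 3 longest with none, those with the 5 highest −log10 q, up to 3 knockdown-only and 3 control-only genes per antibody by peak number, and lists of known roles and partner genes. Regions shared by most lists, promoters shown, ZNF235, and genes beside peak-free stretches were singled out after their values were seen. The gene set, lists and alternatives were chosen with earlier results of these data known. Protein sequences and a genome sequence were not used here. Alternatives varied what counts as a peak, the comparison genes and the libraries.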

Additional observations from a re-analysis of the deposited data

How the results depend on the processing

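The excess at ZNF genes stayed above 0 under every alternative tried, from 0.15 against other genes inside the clusters and 0.17 with the 20000 smallest p-values per list (exact p = 0.625) to 0.40, and between 0.30 and 0.40 without each preparation. Taking the 12 libraries as the unit left it at 0.34 with an exact p of 0.00049, but libraries of a preparation are not independent. Of 143 alternative values, 107 were counted as unchanged. Tested values were so counted when direction and call stayed, and shares and cluster ratios when they moved less than the spread. Knockdown-only and control-only counts were so counted when they stayed within a set fold of the main count. The call was a p below 0.05. Sign-flip tests over preparations and permutations of 2 against 2 libraries cannot reach it, so there only the direction could change. The fall of the excess from 0.34 to 0.17 is thus counted as unchanged, and this number does not measure stability. The share of ZNF genes with a peak fell from 85.9% to 14.3% with the 20000 smallest p-values, and to 0.033% at q of at most 0.05, where too few peaks remained for a ratio.

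The knockdown differences reversed with the 20000 smallest p-values, to 0.57 for RELA and 0.18 for RELB, while the NFKB2 difference grew to −0.62 (exact permutation p = 0.33, the smallest possible), so that its conditions no longer overlapped. The RELA difference also reversed, to 0.059 at −log10 p of at least 2. Other reversals came when libraries were left out: RELA reached 0.19 without control replicate 1, RELB 0.24 without knockdown replicate 1 and 0.059 without control replicate 2, and NFKB2 0.083 without knockdown replicate 1 and 0.061 without control replicate 2. With single libraries left out the RELA difference ran from −0.25 to 0.19, the RELB difference from −0.33 to 0.24 and the NFKB2 difference from −0.17 to 0.083. The cause of the reversals was not tested. With the replicate number as a block the paired differences (replicate block) were −0.030, −0.043 and −0.044 (exact sign-flip p of 1, 1 and 0.5). Deviations of same-numbered libraries correlated at −0.042, −0.012 and −0.055 over 250 genes, so the numbers are not taken to pair them.

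Knockdown-only genes became 5, 2 and 2 for RELA, RELB and NFKB2 with the 20000 smallest p-values and 1 for NFKB2 at −log10 p of at least 2, and ran from 0 to 3, 1 to 5 and 0 to 6, in that order, with a library left out. Control-only genes moved to 3 for RELA without flanks, to 4 for RELB and 11 for NFKB2 with the 20000 smallest p-values, to 11 for RELA and 5 for NFKB2 at −log10 p of at least 2, and to 0 for all at q of at most 0.05. Without a library the RELA count ran from 6 to 101, the RELB count from 12 to 112 and the NFKB2 count from 1 to 15. The highest came in each case without knockdown replicate 2, which for RELA and RELB left the short list alone. Leaving out a library can only keep or raise knockdown-only and control-only counts. The share of all genes was not computed for these settings. Leaving out the 2 short lists, also chosen after seeing the data, moved the share with a peak to 93.3% and the ratio of cluster 1 to cluster 9 from 1.37 to 1.33. Depth is unknown, and summits of a few fragments limit every count here.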
